A study of Arabidopsis thaliana with 6 samples.

Results

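The growth-regulating factors of Arabidopsis thaliana are the 9 transcription factor genes GRF1 to GRF9, listed here by locus: AT2G22840 (GRF1), AT4G37740 (GRF2), AT2G36400 (GRF3), AT3G52910 (GRF4), AT3G13960 (GRF5), AT2G06200 (GRF6), AT5G53660 (GRF7), AT4G24150 (GRF8) and AT2G45480 (GRF9). They are 9 of the 33557 genes in the table, and the authors tested all 9. The 14-3-3 genes that share the symbol GRF (general regulatory factor) are a different family and are not among them. The family was picked because GRF7 was lower in the GFP-FHY1 line, so the contrast below is a description of its members and not a test of the choice. RNA was sequenced from 4-day-old seedlings of 2 genotypes, with 3 libraries of each. The first is the transgenic line 35S:GFP-FHY1 in the fhy1-1 background, which makes a GFP fusion of FHY1 from the strong, broadly active 35S promoter. The other is the fhy1-1 mutant itself. Both carry fhy1-1, and the labels give both the same light, coded D4d+FR3h (D and FR as written there). FHY1 is the shuttle protein that phytochrome A, which senses far-red light, needs to enter the nucleus. Wild type seedlings and seedlings without far-red were not analysed here, so restored FHY1, excess FHY1 and a difference between the lines that does not need far-red cannot be told apart.

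GRF proteins bind DNA through a WRC domain and bind GIF coactivators, among them ANGUSTIFOLIA3 (GIF1), through a QLQ domain. Together with SWI/SNF chromatin remodelling complexes they are known for keeping cells dividing in young leaves and other growing organs. The small RNA miR396 pairs with a site in most GRF messages, inside the part that encodes the WRC domain, and lowers them as organs mature. GRF7 is also known as a repressor of DREB2A, a transcription factor gene of the drought and heat response.

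The miR396 site is shown first because it splits the family by sequence. The mismatch limit used below was set after the expression values were seen, but the number of GRF sites was 7 with at most 1, 2 or 3 mismatches. Mature miR396a (chr2:4142443-4142463, minus strand) and miR396b (chr5:13611808-13611828, plus strand) were read from the RefSeq TAIR10.1 genome, and the capitals mark the seed, bases 2 to 8. Both have the same seed and differ by G21U, counted from the 5′ end of the RNA with miR396a first.
ath-miR396a-5p: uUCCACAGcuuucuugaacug
ath-miR396b-5p: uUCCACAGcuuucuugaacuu
Each GRF message was searched for a run complementary to bases 1 to 20, which both forms share, with at most 2 mismatches and at most 1 extra base in the message. Such a run was found in 7 of the 9 messages, each time with 1 mismatch and 1 extra base and each time inside the coding sequence. The sites below are DNA of the message strand, 5′ to 3′, and capitals mark the unpaired bases. Where the extra base could be either of 2 like neighbours, the first is marked.
GRF1, chr2:9729945-9729965, plus strand: CgttcaagaaagCctgtggaa
GRF2, chr4:17726404-17726424, minus strand: CgttcaagaaagCctgtggaa
GRF3, chr2:15271745-15271765, minus strand: CgttcaagaaagCctgtggaa
GRF4, chr3:19617293-19617313, minus strand: CgttcaagaaagCctgtggaa
GRF7, chr5:21795146-21795166, plus strand: CgttcaagaaagcAtgtggaa
GRF8, chr4:12538650-12538670, plus strand: CgttcaagaaagcAtgtggaa
GRF9, chr2:18746293-18746313, plus strand: CgttcaagaaagcTtgtggaa
The site lies in exon 3 of 4 in GRF1 to GRF4, exon 2 of 3 in GRF7, exon 5 of 6 in GRF8 and exon 2 of 4 in GRF9, by the RefSeq models. GRF1 to GRF4 had the same 21 bases, and GRF7 and GRF8 shared another form. The closest runs in GRF5 and GRF6 had 6 mismatches each and are not sites under this limit. Among 27440 protein-coding transcripts, 1 per gene, 18 (0.0656%) held a run within the limit, and the 7 with only 1 mismatch were the 7 GRF messages.

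**Figure D1:**
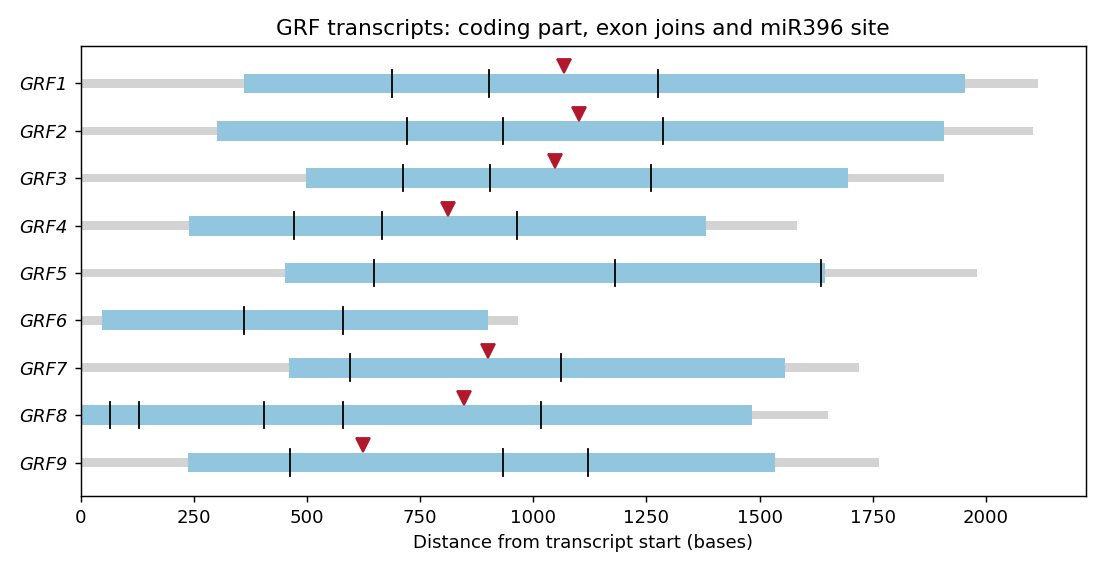
Transcript maps of the 9 GRF genes from RefSeq TAIR10.1, with distance from the transcript start in bases on the x axis. Grey bars are the whole transcript, blue the coding part, black ticks the exon joins and red triangles the miR396 site, which 7 genes carry and GRF5 and GRF6 do not.

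The encoded proteins ranged from 283 residues (GRF6) to 535 residues (GRF2), as translated from RefSeq coding sequences. GRF3 and GRF4 were the closest pair, with 75.3% of the shorter protein identical in a global alignment. GRF1 and GRF2 followed with 62.1%. The closest relative of GRF7 by this measure was GRF1, at 34.2%, with GRF2 nearly level at 34%. GRF8 was closest to GRF7, at 32.6%.

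Levels are in FPKM, a fragment count scaled by transcript length and by the library's mapped total. The authors deposited a single FPKM value for each gene in each genotype, with the 3 libraries merged into it. No spread between libraries can therefore be given, and the depth of each library is unknown. The error printed is the standard error of the log2 fold change implied by the authors' statistic, which covers only what their error model covers. How that model treats the spread between the 3 libraries is not stated. The errors look small for 3 biological samples, and if that spread is left out, the intervals are too narrow and q is too low. A gene is called when q in the authors' deposited table is below 0.05, over 23937 tested genes. FHY1 checked the labels, at 195.9 FPKM in the GFP-FHY1 line and 18.95 FPKM in fhy1-1.

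GRF7 and GRF2, the most abundant GRF messages in both genotypes, were lower in the GFP-FHY1 line, and none of the other 7 members was called. GRF7 stood at 19.1 FPKM in the GFP-FHY1 line and 68.8 FPKM in fhy1-1. That is 3.61-fold lower, a log2 fold change of -1.85 (implied SE 0.066, implied 95% interval -1.98 to -1.72), with a q of 0 as printed in the authors' deposited table. GRF2 (chromosome 4, 17725337 to 17727730, TAIR10) stood at 14.7 FPKM in the GFP-FHY1 line and 24.7 FPKM in fhy1-1. GRF2 was thus 1.68-fold lower (log2 fold change -0.75, implied SE 0.069), again with a q of 0 as printed in the authors' deposited table. These are 2 of 9 GRF genes, against 12.9% of all tested genes called lower, while 0 GRF genes were called higher, against 9.92% of all tested genes (22.8% in either direction). Since the family was picked on this contrast, nothing is read from that share. At an unadjusted p below 0.05, the authors' deposited test gives 3 GRF genes lower and 0 higher. Over all 23937 tested genes, the same limit gives 4165 lower and 2999 higher. Both members stayed called lower with q below 0.01 (9.81% of all tested genes), Bonferroni adjustment (5.26%), at least 1 FPKM (16.6%), centring on the median gene (9.51%) or an assumed spread of 10% between libraries added to the authors' error (2.61%). GRF7 alone stayed called with at least a 2-fold change (0.476%) or an added spread of 20% (0.398%). With 20% added, the Benjamini-Hochberg adjusted p over 23355 genes was 1.44e-11 for GRF7 and 0.0702 for GRF2. These values reuse the contrast on which the family was picked, so they are no separate support for its choice.

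**Figure D2:**
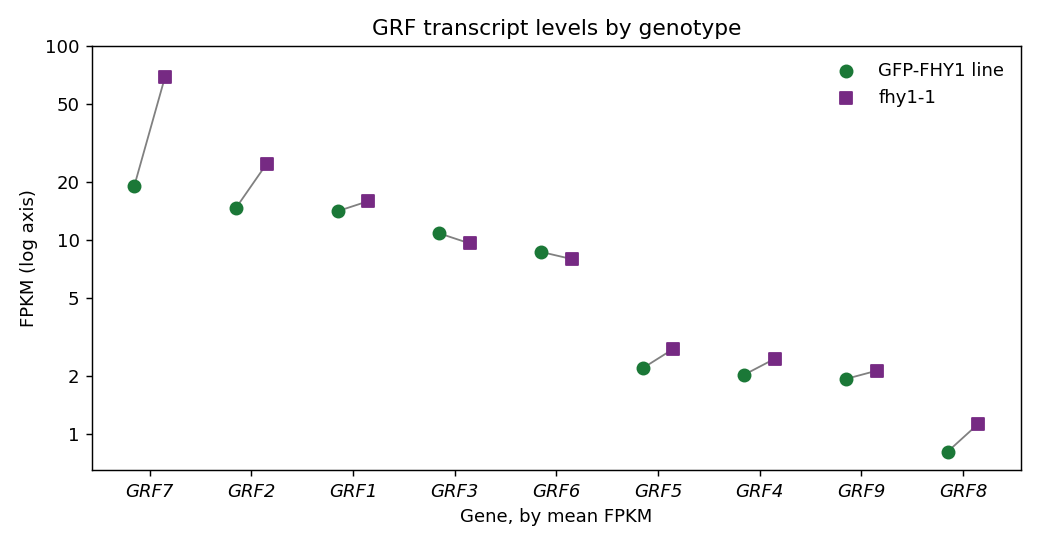
FPKM on a log axis for each GRF gene in the GFP-FHY1 line (green circles) and in fhy1-1 (purple squares), genes ordered by mean FPKM. Each point is the authors' single value for that genotype; GRF7 shows the widest gap, at 19.1 FPKM in the GFP-FHY1 line and 68.8 FPKM in fhy1-1, and the order of the genes is the same in both genotypes.

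The third most abundant member was GRF1, which like GRF2 and GRF3 is known for promoting leaf and cotyledon growth. It stood at 14.1 FPKM in the GFP-FHY1 line and 15.9 FPKM in fhy1-1. Its log2 fold change was -0.17 (implied SE 0.077), with q of 0.103 in the authors' deposited table, so this gene was not called. GRF3 stood at 10.8 FPKM in the GFP-FHY1 line and 9.60 FPKM in fhy1-1, a log2 fold change of 0.17 (implied SE 0.101). GRF4, its closest relative, was far lower in level, at 2.03 FPKM in the GFP-FHY1 line and 2.45 FPKM in fhy1-1 (log2 fold change -0.27, implied SE 0.230). In the authors' table the locus of GRF1 is joined with that of the bZIP6 gene (AT2G22850), and that of GRF3 with SBE2.1 (AT2G36390), a starch branching enzyme gene. RefSeq places both partners on the opposite strand, where bZIP6 overlaps GRF1 by 23 bases and SBE2.1 overlaps GRF3 by 5 bases. Without stated strand handling, reads of such pairs cannot be told apart where they overlap. The RefSeq model of GRF9 likewise overlaps AUR3 by 126 bases, and that of GRF3 overlaps the opposite-strand RNA gene AT2G08795 by 227 bases. SBE2.1 stood at 9.41 FPKM in the GFP-FHY1 line and 11.6 FPKM in fhy1-1.

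GRF5 and GRF6, the pair without a miR396 site, showed small differences. GRF5, known for promoting cell division in leaf primordia, stood at 2.19 FPKM in the GFP-FHY1 line and 2.75 FPKM in fhy1-1 (log2 fold change -0.33, implied SE 0.215). GRF6 stood at 8.69 FPKM in the GFP-FHY1 line and 7.98 FPKM in fhy1-1 (log2 fold change 0.12, implied SE 0.166). The log2 fold changes of the 7 members with a site ran from -1.85 to 0.17, with a median of -0.27. The lower end is GRF7, on which the family was picked, so nothing is read from this range about the site. GRF7, GRF8 and GRF9 have sites that differ from the form of GRF1 to GRF4, and they spanned a wide range. GRF8 was the least abundant member, at 0.814 FPKM in the GFP-FHY1 line and 1.13 FPKM in fhy1-1 (log2 fold change -0.47, implied SE 0.349). GRF9, known as a brake on leaf growth, stood at 1.93 FPKM in the GFP-FHY1 line and 2.12 FPKM in fhy1-1 (log2 fold change -0.14, implied SE 0.228). GRF8 carries the same site bases as GRF7. The implied interval of the GRF8 log2 fold change, -1.16 to 0.21, is wide at this low level. Any part of the site in these differences was not tested.

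**Figure D3:**
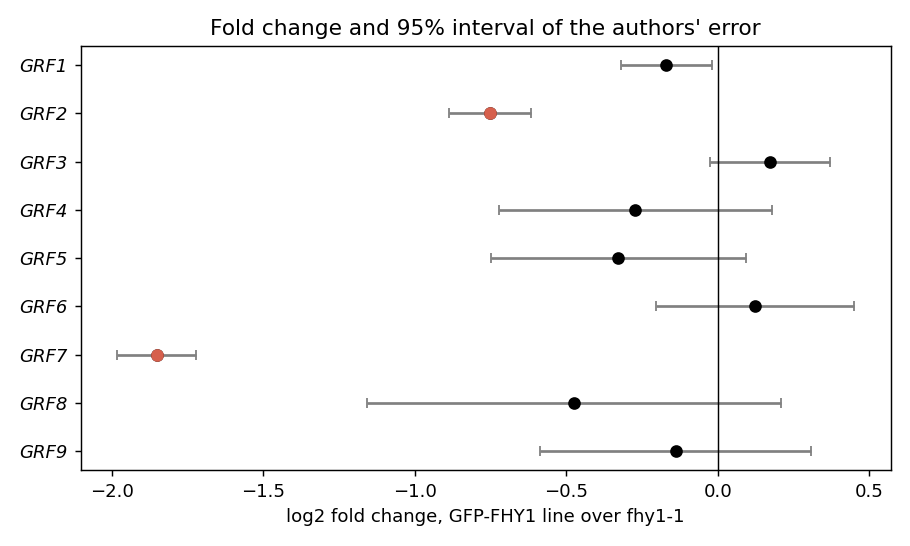
Log2 fold change of each GRF gene, GFP-FHY1 line over fhy1-1, with the 95% interval implied by the authors' statistic; red points are the genes called. GRF7 at -1.85 and GRF2 at -0.75 are the called members, and the intervals of GRF4, GRF5, GRF8 and GRF9 are wide at their low levels.

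The order of the 9 levels was the same in both genotypes: GRF7, GRF2, GRF1, GRF3, GRF6, GRF5, GRF4, GRF9 and GRF8. In the GFP-FHY1 line GRF2 and GRF1 were nearly level (14.7 and 14.1 FPKM), as were GRF5, GRF4 and GRF9 (2.19, 2.03 and 1.93 FPKM). With no value per library it cannot be said whether such neighbours differ. Summed over the family, the level was 74.3 FPKM in the GFP-FHY1 line and 135.4 FPKM in fhy1-1, which is 45.1% lower. GRF7 made up 25.7% of that sum in the GFP-FHY1 line and 50.8% in fhy1-1. Without GRF7 the sums were 55.2 FPKM in the GFP-FHY1 line and 66.6 FPKM in fhy1-1. Without GRF7 and GRF2 they were 40.6 FPKM in the GFP-FHY1 line and 41.9 FPKM in fhy1-1, 3.19% lower, so most of the family's difference of -61.1 FPKM came from these 2 genes, with -49.7 FPKM for GRF7 and -10.0 FPKM for GRF2.

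Of 23355 tested genes with a fold change, 158 had a lower log2 fold change than GRF7 and 950 a lower one than GRF2. Among the 10004 of them with a mean of at least 10 FPKM, 4 lay below GRF7 and 72 below GRF2. GRF7 lay at the 73.5th percentile of tested genes by level in the GFP-FHY1 line and at the 91.9th in fhy1-1. The 4 genes nearest to GRF7 in log2 FPKM of both genotypes, out of 23354, were BBX23, AT2G20721, AT4G25707 and SNRK2.5. BBX23, which encodes a B-box protein, stood at 22.1 FPKM in the GFP-FHY1 line and 59.9 FPKM in fhy1-1 (distance 0.29 on the log2 scale). SNRK2.5, a protein kinase gene of the osmotic stress family, stood at 26.9 FPKM in the GFP-FHY1 line and 77.9 FPKM in fhy1-1 (distance 0.53). Both were called lower, as were 12.9% of all tested genes. Their direction follows from how they were picked, by nearness to the values of GRF7. AT2G20721, at 15.8 FPKM in the GFP-FHY1 line and 56.0 FPKM in fhy1-1, and AT4G25707, at 23.5 FPKM in the GFP-FHY1 line and 56.6 FPKM in fhy1-1, were not called, with q of 0.629 and 0.407 in the authors' deposited table. Nearness here rests on only 2 values per gene.

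**Figure D4:**
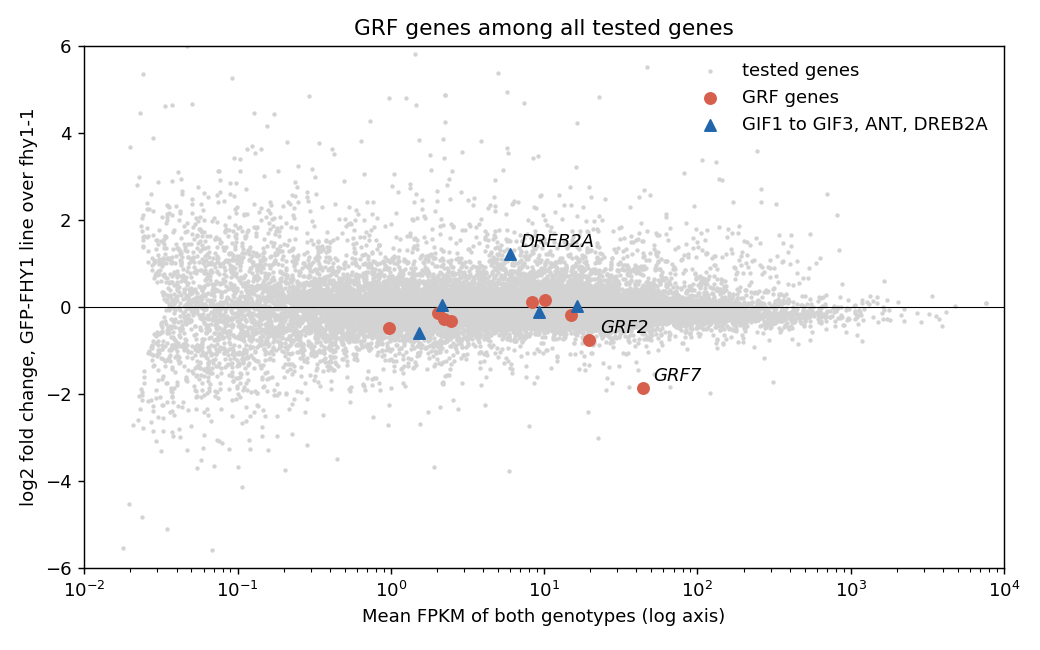
Log2 fold change, GFP-FHY1 line over fhy1-1, against mean FPKM (log axis) for tested genes with both values above 0; 16 of 23355 points lie outside the axes. GRF genes are red circles, and GIF1 to GIF3, ANT and DREB2A blue triangles. GRF7 lies at the lower edge of the cloud at its level, at -1.85, and DREB2A stands above 0, at 1.22.

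The GIF coactivators that work with GRF proteins showed no called difference. GIF1 stood at 8.98 FPKM in the GFP-FHY1 line and 9.66 FPKM in fhy1-1 (log2 fold change -0.11, implied SE 0.126). GIF2 stood at 16.4 FPKM in the GFP-FHY1 line and 16.1 FPKM in fhy1-1, and its locus overlaps that of another gene. GIF3 stood at 1.22 FPKM in the GFP-FHY1 line and 1.86 FPKM in fhy1-1, with q of 0.239 in the authors' deposited table. The list of GIF genes and SWI/SNF partners had 2 of 10 genes called higher and 0 lower by that table, and its median was -0.00247 on the log2 scale, against -0.05 over all tested genes. For this and each list below, the number called is to be read against the 9.92% of all tested genes called higher and the 12.9% called lower. The called genes were the remodelling ATPase genes SYD, 1.30-fold higher at 13.1 FPKM in the GFP-FHY1 line and 10.1 FPKM in fhy1-1, and BRM, 1.09-fold higher. The locus of SYD overlaps another gene, and BRM was no longer called with the 10% spread, under which 5.13% of all tested genes were called higher.

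The precursor loci of miR396 gave no called difference. MIR396A stood at 12.5 FPKM in the GFP-FHY1 line and 4.91 FPKM in fhy1-1, with an implied interval of the log2 fold change from -1.53 to 4.21. MIR396B was listed at 0 in the GFP-FHY1 line and at 1.66 FPKM in fhy1-1. The mRNA protocol does not measure mature miRNAs, and these loci are short, so their values are imprecise. A list of 13 genes of miR396, its TCP regulators and the small RNA machinery had 3 called higher and 1 lower (median log2 fold change 0.07). TCP10, a factor of the same class as TCP4, rose 1.66-fold to 3.83 FPKM in the GFP-FHY1 line, against 2.31 FPKM in fhy1-1. TCP4, a factor known to raise miR396, stood at 6.67 FPKM in the GFP-FHY1 line and 8.67 FPKM in fhy1-1 and was not called, and this gene is named here after its values were seen. DCL1, which cuts miRNA precursors, was 1.24-fold higher, and AGO1, which holds mature miRNAs, 1.08-fold higher; the locus of DCL1 overlaps other genes. The gene bHLH74, a miR396 target outside the family, fell 1.28-fold to 13.1 FPKM in the GFP-FHY1 line, against 16.8 FPKM in fhy1-1. Its closest run to miR396 had 4 mismatches, beyond the limit used for the GRF sites, and its locus overlaps another gene. Of these 4 called genes, TCP10 alone stayed called with the 10% spread.

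DREB2A, the known target of GRF7 repression, rose 2.33-fold. It stood at 8.37 FPKM in the GFP-FHY1 line and 3.59 FPKM in fhy1-1 (log2 fold change 1.22, implied SE 0.226), with q of 7.72e-07 in the authors' deposited table. DREB2A stayed called with the 20% spread, under which 2.48% of all tested genes were called higher. Any part of the lower GRF7 level in the DREB2A rise was not tested. The DNA element known for GRF7 binding in this promoter, TGTCAGG, lies 299 bases before the RefSeq gene start on the plus strand. The 80 bases around it (chr5:1601875-1601954, plus strand, TAIR10.1) are shown with that element in capitals, followed by an evening element (AAAATATCT), here on the other strand and also in capitals.
DREB2A, bases -330 to -251: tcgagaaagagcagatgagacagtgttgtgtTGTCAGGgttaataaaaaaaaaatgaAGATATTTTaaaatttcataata
The same 7 letters, on either strand, occur in the 1000 bases before the start of 3.35% of 27443 protein-coding genes, so a match is common by itself. No other called gene of the osmotic stress list changed as much as DREB2A. Among the list's 13 drought, cold and osmotic stress genes, 2 were called higher, DREB2A included, and 2 lower (median log2 fold change -0.05). COR47, a dehydrin gene, was 1.21-fold higher at 751.8 FPKM in the GFP-FHY1 line and 620.6 FPKM in fhy1-1. RD29A, a classic DREB2A target, was 1.17-fold lower at 50.9 FPKM in the GFP-FHY1 line and 59.6 FPKM in fhy1-1, and LEA14 1.10-fold lower. None of COR47, RD29A and LEA14 was still called with the 10% spread. HSFA3, named after its values were seen, was not called (q of 0.186 in the authors' deposited table). It stood at 1.80 FPKM in the GFP-FHY1 line and 1.23 FPKM in fhy1-1. Of the 12 list genes with a fold change, 5 lay above 0 and 7 below, so RD29A does not stand for the list.

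The GRF7 promoter is printed because that member changed most. Searched on both strands in the 250 bases before the RefSeq start, it held 1 of 5 motifs: the DRE core ACCGAC, the element that DREB proteins are known to bind, here in capitals on the minus strand and 123 bases before the start.
GRF7, chr5:21793927-21794176, plus strand, TAIR10.1: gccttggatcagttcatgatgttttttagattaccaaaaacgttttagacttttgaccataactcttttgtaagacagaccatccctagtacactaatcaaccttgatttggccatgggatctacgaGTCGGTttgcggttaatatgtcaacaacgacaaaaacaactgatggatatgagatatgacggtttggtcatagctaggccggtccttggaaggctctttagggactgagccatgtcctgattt
The DRE core was found in 4.7% of all promoters of that length. The G-box CACGTG, which PIF factors and HY5 are known to bind, was found in that window of GRF1, against 6.49% of all promoters. The FHY3/FAR1 site CACGCGC, bound by activators of FHY1, was in none of the 9 GRF windows (1.06% of all promoters), nor were TGTCAGG (0.754%) and the evening element (2.36%). Over 1000 bases, the G-box was in GRF1, GRF2, GRF3 and GRF9 (14.8% of all promoters) and the DRE core in GRF7 only among the members (15.2%). TGTCAGG was then in GRF9 (3.35%) and the evening element in GRF5 (7.24%), and the FHY3/FAR1 site in no member (2.54%). In that longer window the G-box was thus before GRF2, which was called, and before GRF1, GRF3 and GRF9, which were not. Any part of these motifs in the GRF levels was not tested. The authors' model of GRF7 (chromosome 5, 21794536 to 21796046, TAIR10) starts 359 bases inside the RefSeq gene. The opposite-strand RNA gene AT5G08015, which overlaps the RefSeq GRF7 start by 244 bases, lies outside that model. Its span, 21794048 to 21794420, also covers the DRE core in the printed GRF7 promoter.

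Called differences among genes of growing organs that act beside the GRF family were at most 1.44-fold. Among 17 organ size regulators, 5 were called lower (12.9% of all tested genes) and 1 higher (9.92%), with -0.06 as the median on the log2 scale. ARL, an ARGOS-like gene of cell expansion, fell 1.44-fold to 64.2 FPKM in the GFP-FHY1 line, against 92.2 FPKM in fhy1-1. PPD2, a limiter of leaf cell division, was 1.33-fold lower, LNG2, of cell elongation, 1.17-fold lower and the proton pump gene AVP1 1.13-fold lower, its locus overlapping another gene. The other called genes, named after their values were seen, were LNG1 (1.13-fold lower) and the brassinosteroid enzyme gene ROT3 (1.11-fold higher), whose loci also overlap other genes. AINTEGUMENTA (ANT), the growth regulator that lies beside GRF2 on chromosome 4, stood at 2.17 FPKM in the GFP-FHY1 line and 2.11 FPKM in fhy1-1 and was not called. Of 6 KNOX and PLETHORA meristem genes, some of which GRF proteins are known to repress, 1 was called higher (9.92% of all tested genes) and 0 lower (median log2 fold change 0.19). That gene was KNAT1, 1.18-fold higher at 50.3 FPKM in the GFP-FHY1 line and 42.5 FPKM in fhy1-1. Of these 7 called genes, ARL alone stayed called with the 10% spread.

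**Figure D5:**
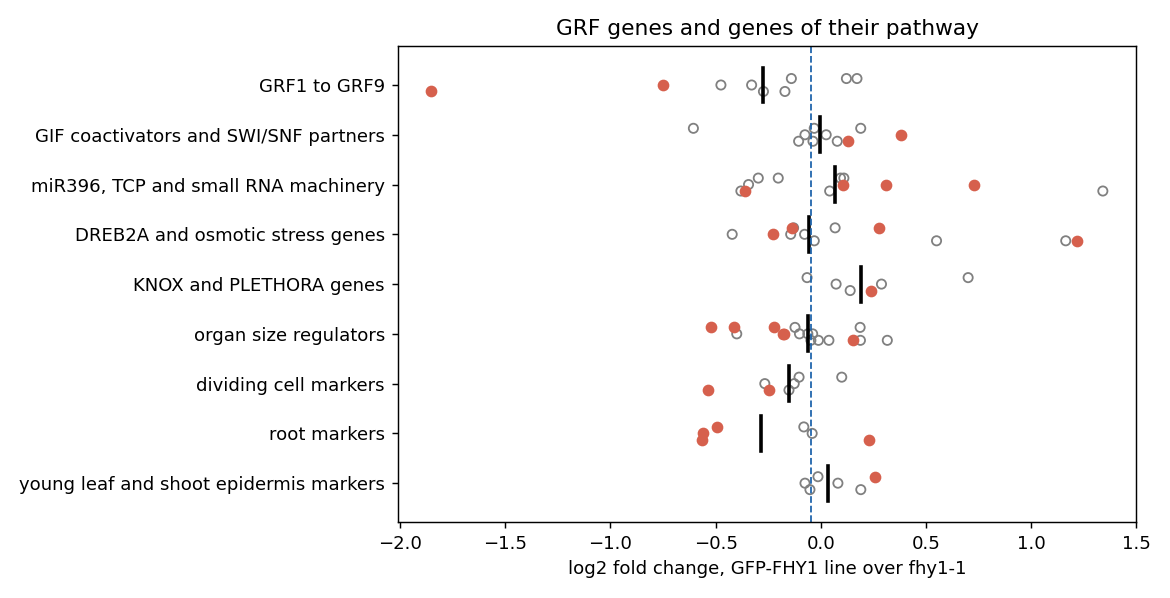
Log2 fold changes, GFP-FHY1 line over fhy1-1, of GRF1 to GRF9 and of the genes of each list; filled red points were called, open points were not, black bars are list medians and the dashed line is the median of tested genes, -0.05. GRF7 is the lowest point of any list, at -1.85, and genes with a value at 0 are not drawn.

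GRF messages are known to be rich in dividing and young tissue, so markers of other cell types in whole seedlings are given beside them. Among 7 dividing-cell markers, 2 were called lower and 0 higher, against 12.9% and 9.92% of all tested genes, and their summed level was 67.1 FPKM in the GFP-FHY1 line and 74.1 FPKM in fhy1-1. The mitotic cyclin gene CYCB1;1 was at 2.12 FPKM in the GFP-FHY1 line and 3.07 FPKM in fhy1-1, and CDKB2;1, whose locus overlaps another gene, was 1.19-fold lower. Neither was called after centring on the median gene, nor with the 10% spread. Among 6 root markers, 3 were called lower (12.9% of all tested genes) and 1 higher (9.92%), and their summed level was 118.7 FPKM in the GFP-FHY1 line and 150.4 FPKM in fhy1-1. The phosphate transporter gene PHT1-1 was 1.48-fold lower, GL2, which specifies non-hair root cells, 1.48-fold lower and the root hair gene RHS19 1.41-fold lower, while SHR was 1.17-fold higher. The locus of GL2 overlaps another gene. SCR and WOX5 were not called, with log2 fold changes of -0.04 and -0.08. RHS19 stood at 45.4 FPKM in the GFP-FHY1 line and 63.8 FPKM in fhy1-1, and PHT1-1 at 26.3 and 38.9 FPKM, so these weigh most in the sum. With the 10% spread, PHT1-1, GL2 and RHS19 stayed called lower (2.61% of all tested genes). SHR did not stay called higher (5.13%). Among 6 young leaf and shoot epidermis markers, 1 was called higher (9.92% of all tested genes), the leaf polarity gene YAB1 (1.20-fold), and 0 lower; their summed level was 75.2 FPKM in the GFP-FHY1 line and 72.1 FPKM in fhy1-1. YAB1 was no longer called with the 10% spread. No marker of these 3 lists was at 0 in either genotype. The part of these markers in the lower GRF7 and GRF2 levels was not tested, and in whole seedlings fewer cells of a type and less RNA per cell cannot be told apart.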

How the data were processed

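The authors deposited 1 gene table for the series, with the layout of a Cuffdiff gene table per the file headers. Bowtie and the TAIR10 build are named, without versions, in the submitters' processing notes. How strand, multiply mapped reads and dispersion were handled is not given in the sources used. The value columns name no unit and are read as FPKM, combined by the authors over the 3 libraries of each genotype. The authors' p-value and q-value columns were used as deposited. The log2 fold change was recomputed from the deposited FPKM values (largest difference 1.46e-05), because the column holds a placeholder for infinity. The implied SE is the absolute value of the log2 fold change over the authors' statistic. That statistic had the opposite sign to the log2 fold change in 23355 genes and the same sign in 0. Directions were therefore read from the FPKM values. Locus starts were written from 1.

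Retests with an added replicate spread of 10% or 20% used a normal test with that error and Benjamini-Hochberg adjustment. They were run on simulated data drawn with the same error and spread. Such data check the calculation only, and cannot show whether that error or spread holds for these libraries. Sequences and gene models came from RefSeq TAIR10.1, with the transcript of the longest coding sequence for each gene. Proteins were aligned with Biopython 1.88 (BLOSUM62, gap opening 11, extension 1). All 87 listed genes matched RefSeq.

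The members and gene lists were chosen with earlier results of these data known. The mismatch limit for miR396 sites, and the motifs searched, were set after the values were seen. The named genes are the 9 members, FHY1, up to 4 called genes of a list (those averaging 1 FPKM or more, by size of change; if none, the 2 highest), GIF1 to GIF3, ANT, DREB2A, the MIR396 loci and the 4 genes nearest to GRF7. The numbers of called genes are descriptions, without any set test. The libraries are labelled biological replicates, but no value per library was used here.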

Additional observations from a re-analysis of the deposited data

How the results depend on the processing

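Of the 9 GRF genes, 2 were called lower; the number was 1 when a 2-fold change was required and 1 with a replicate spread of 20%, GRF7 in each case, and 2 with q below 0.01, Bonferroni adjustment, at least 1 FPKM, a spread of 10% or centring. GRF2 lost its call at an unchanged log2 fold change of -0.75 with the 20% spread. No GRF gene was called higher under any of these. Pseudocounts of 1 and 0.1 and centring kept every GRF direction, with GRF7 between -1.85 and -1.80. Among the 78 genes of the other lists, 11 were called higher and 13 lower, against 9.92% and 12.9% of all tested genes. The numbers were 12 higher and 10 lower after centring, 12 and 13 with at least 1 FPKM, 7 higher and 10 lower with q below 0.01, 4 higher and 7 lower with Bonferroni adjustment, 1 higher and 0 lower when a 2-fold change was required, 3 higher and 4 lower with a spread of 10%, and 1 higher and 0 lower with 20%. DREB2A was the gene left under the 2-fold rule and under the 20% spread. Apart from centring and the FPKM minimum, these rules are stricter by construction. Of all genes that each rule covered, 12.4% were called higher and 9.51% lower after centring, and 12.4% and 16.6% with at least 1 FPKM. The shares were 8.23% higher and 9.81% lower with q below 0.01, and 5.3% and 5.26% with Bonferroni adjustment. They were 2.12% higher and 0.476% lower when a 2-fold change was required. With the 10% spread they were 5.13% higher and 2.61% lower, and with 20% they were 2.48% and 0.398%. The number of GRF sites for miR396 was 7 with at most 1, 2 or 3 mismatches. No paired analysis was possible because each genotype has a single merged value without replicate numbers. Leaving out single libraries was not run for the same reason. FPKM keeps no depth, so what depth limits is unknown beyond the wide intervals of the members near 1 to 3 FPKM.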

Other observations

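Transcripts of 11 other genes held a run complementary to miR396 with 2 mismatches, within the limit used for the GRF sites. The authors' table holds 9 of them and tested 8, of which 0 were called in the authors' deposited table and 1 had an unadjusted p below 0.05. Of all 23937 tested genes, 22.8% were called. At an unadjusted p below 0.05, that test gives 4165 of them lower and 2999 higher. Nothing is read from so few genes. RAP2.12, which encodes an oxygen-sensing transcription factor, stood at 116.6 FPKM in the GFP-FHY1 line and 114.5 FPKM in fhy1-1. FLU, a brake on chlorophyll synthesis in the dark, stood at 53.4 FPKM in the GFP-FHY1 line and 53.9 FPKM in fhy1-1. Both were named after their values were seen, and a match of letters does not show that either is a miR396 target.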
